A study of Coturnix japonica with 24 samples.

Results

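The genes of the receptors for GABA, glutamate, glycine and acetylcholine were followed in the mediobasal hypothalamus of Japanese quail (Coturnix japonica) under long and short days. They were chosen by name, as every gene whose single symbol in the array's annotation begins with GABR, GABBR, GRIA, GRID, GRIK, GRIN, GLRA, GLRB, CHRN or CHRM, or is that of a metabotropic glutamate receptor (GRM). The rule found 60 of the 13009 genes with 1 symbol, in 10 families, with 115 probe sets in all. Of a gene with several, the brightest on average over the 24 arrays stands for it. Of the 60, 59 encode receptors or their subunits. GRID2IP matched by name alone, since it encodes a scaffold protein of the delta glutamate receptor. Other genes of these families are not analysed here.

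All birds were male, 8 weeks old at the start, and had spent 4 weeks under short days of 6 h of light and 18 h of dark. One group then spent 2 weeks under long days (20 h light, 4 h dark), while the other stayed under short days. The mediobasal hypothalamus, where birds translate day length into reproductive signals, was taken at zeitgeber times (ZT) 2, 6, 10, 14, 18 and 22, taken here to count hours from lights on. There are 12 groups of 2 arrays, each array of RNA pooled from 3 birds, so 12 arrays stand for each photoperiod, and nothing was measured in single birds.

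Fast signalling between hypothalamic neurons uses ligand-gated channels. GABA-A and glycine receptors are pentameric chloride channels, the AMPA, kainate and NMDA receptors are tetrameric cation channels opened by glutamate, and nicotinic receptors are pentameric cation channels opened by acetylcholine. GABA-B, metabotropic glutamate and muscarinic receptors act more slowly through G proteins. In mammals these receptors set the firing of neurons that control gonadotropin release, feeding and body rhythms.

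The arrays carry chicken probes, which can bind quail transcripts less well, so no gene's level is set against another's. Where intensities of markers are summed below, the brightest probe sets weigh most. Among astrocyte markers these were GJA1 and SLC1A3 (means of 2866 and 2435), and among tanycyte markers VIM (3251). The median deposited intensity of an array lay between 10.9 and 21.05. Per array, 38.1% to 49.6% of probe sets were above background (the 95th percentile of probe sets for sequences other than chicken, 15.4 to 21.3 on the centred scale). The first array of a group was the brighter in 12 of 12 groups, by 1.22 to 1.85 times, so the arrays numbered 1 and 2 are also given apart as array sets 1 and 2. As a measure of RNA quality, the ACTB control probe set at the 3′ end exceeded that at the 5′ end by a log2 ratio of 1.84 ± 0.15 in long days and 1.69 ± 0.17 in short days (SD, n = 12 each). Its part in the results below was not tested. Hypothalamic identity was checked on the listed markers, of which 8 of 10 measured were above background on at least 12 of the 24 arrays, among them NKX2-1, NPY, AVP, POMC and HCRT, while SIM1 and TRH were not. One of the 10, POMC, fell in long days (-1.04 ± 0.14, adjusted p = 2.65e-04), where 0.132% of all probe sets passed the photoperiod test. Of the 10, 3 were higher and 7 lower in long days, with a median change of -0.23. These 10 summed to 4135 to 5591 in long days and 5076 to 7369 in short days. NPY was at -0.29 ± 0.09 (limma adjusted p = 0.555). All 9 neuronal markers were above background on at least 12 of the 24 arrays. Their summed intensity ran from 25357 to 33785 in long days and from 24350 to 31982 in short days, and 0 of 9 passed the photoperiod test, which 0.132% of all probe sets passed. STMN3 (0.53 ± 0.17, limma adjusted p = 0.60) and SYN2 (0.29 ± 0.11, limma adjusted p = 0.71) were higher in long days at an unadjusted p under 0.05. The part of hypothalamic or neuronal content in the results was not tested. In pooled tissue, fewer cells of a type and less RNA per cell cannot be told apart.

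Of the 60 genes, 32 were above background on all 24 arrays and 45 on at least 12. The 45, called brighter below, were the GABA-A subunits GABRA2 to GABRA5, GABRB2, GABRD, GABRE, GABRG1, GABRG3, GABRP and GABRQ, the GABA-B subunit GABBR2, all 5 glycine receptor genes, all 4 AMPA and all 4 kainate genes, GRIN1, GRIN2A, GRIN3A and GRID1, the metabotropic receptors GRM3, GRM4, GRM5, GRM7 and GRM8, the nicotinic subunits CHRNA3 to CHRNA8, CHRNA10, CHRNB2 and CHRNB4, and the muscarinic receptors CHRM4 and CHRM5. Another 11 were tested but dim: GRIN2B, GRM2, GABRR3, CHRNA1, CHRNA2, CHRNA9, CHRNB3, CHRND, CHRM2, CHRM3 and GRID2IP. The remaining 4 lay in the lowest 25% of all probe sets by mean and were not tested. They were GABRA6, in mammals a subunit of cerebellar granule cells, the rho subunits GABRR1 and GABRR2, known from the retina, and CHRNG, a subunit of the embryonic muscle receptor. CHRNA1 and CHRND, the other muscle subunits measured, were above background on 8 and 5 of 24 arrays. Of 4 muscle markers measured, ACTA1 was above it on 24, TNNT3 on 22, DES on 16 and MYOG on 2 of 24 arrays. Their summed intensity ran from 61.6 to 115 in long days and from 84.8 to 121 in short days, and their part in these values was not tested.

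The first question was whether receptor genes differed between long and short days over the whole day. None of the 56 tested genes passed (limma, adjusted p under 0.05), against 0.132% of all 28829 probe sets tested. At an unadjusted p under 0.05 there were 7 of 56, or 12.5%, against 5.42% of all probe sets. Of these 7, GABRA2, CHRNB4 and the dim CHRM2 were higher in long days, and GABRA3, GRIA2, GRIK3 and GRM3 were lower. Among genes above background on at least 12 arrays the share was 6 of 45, against 5.56% of such probe sets. At all 6 times the difference in means had one sign for 6 of 56 genes, or 10.7%, against 4.3% of all probe sets. These were GRM3, GRIK3, GRIA2 and CHRM5, lower in long days, and CHRNB4 and CHRM2, higher. These counts use the same arrays as the photoperiod test and are no separate evidence. The shares beside them count every such probe set, whereas a receptor gene enters by its brightest one, so they are not strictly alike.

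**Figure D1:**
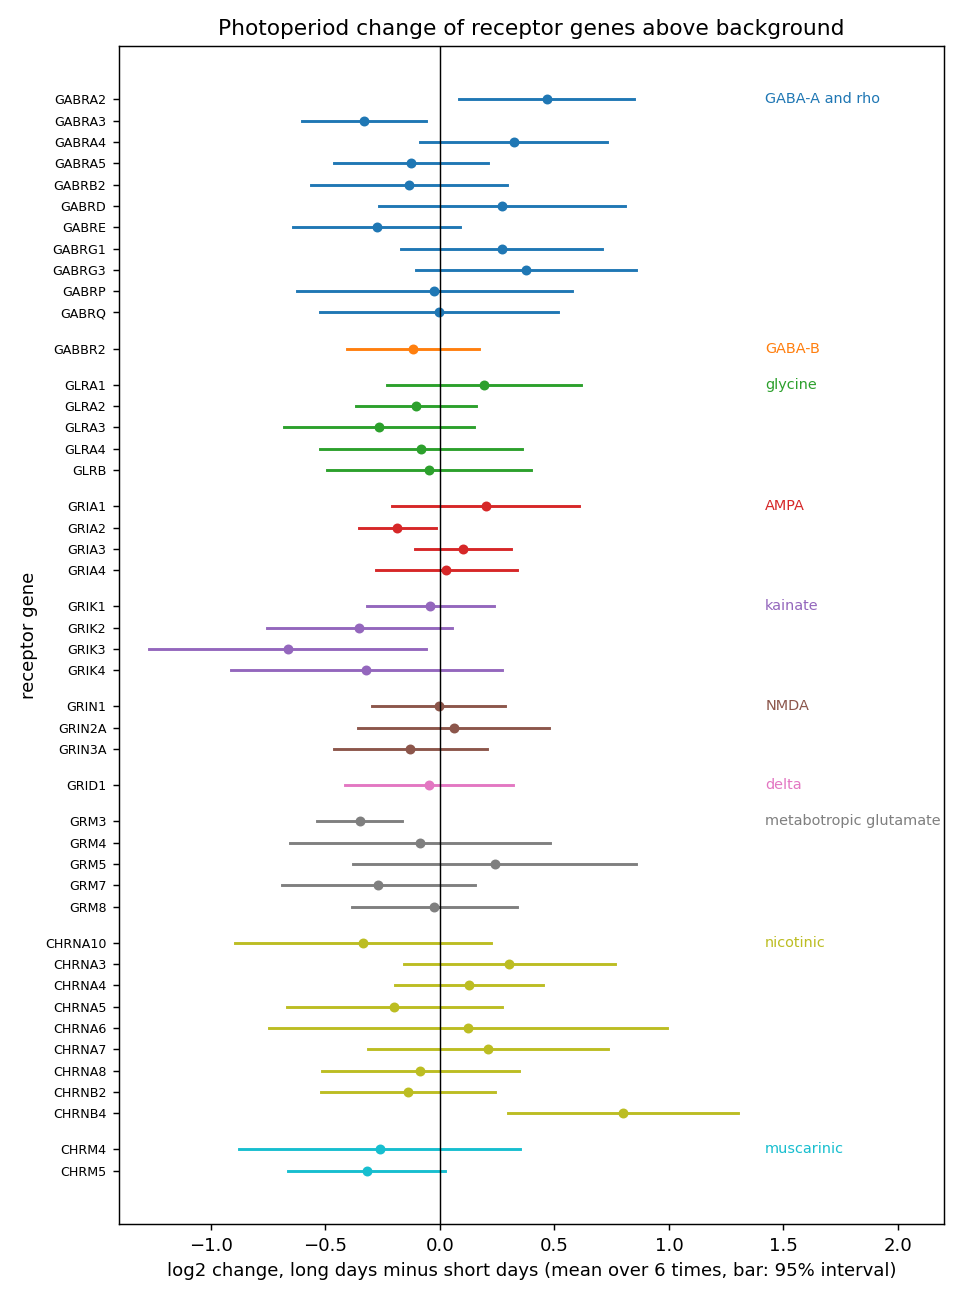
Photoperiod change of the 45 receptor genes above background on at least 12 of 24 arrays. Each point is the log2 change, long days minus short days, over 6 times, each bar its 95% interval, and colours mark the families. The bars of 6 genes leave out 0 without adjustment for multiple tests, and 43 of the 45 bars lie within 1 log2 unit of 0.

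The size of change that the arrays leave possible can be read from the intervals. For 43 of the 45 brighter genes the unadjusted 95% interval of the photoperiod change lay within 1 log2 unit on either side of 0. A lasting 2-fold change of the measured signal lay outside it, and for 14 genes it lay within 0.5. The exceptions to the wider limit were CHRNB4 and GRIK3. These intervals concern the signal of 1 chicken probe set per gene. Probe sets of a gene could differ, as for GRIK1, at -0.04 and 0.45. Counting dim genes, the interval was within 1 log2 unit for 46 of 56, or 82.1%, against 65% of all probe sets. The shares are not alike, since each receptor gene stands by its brightest probe set and the 65% counts every tested probe set. The median change of the 45 was -0.05, beside a median of -0.01 over all probe sets that bright. Of the 45, 16 were higher and 29 lower in long days, and 48.9% of all probe sets that bright were higher. This difference was not tested.

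Among the inhibitory channels, the GABA-A subunits went both ways, with 5 of 11 brighter genes higher in long days, 6 lower and none past the test. GABRA3, the alpha-3 subunit, ran from 111 over a median of 184 to 283 in long days, against 185, 221 and 308 in short days. The groups overlapped, although 6 of 12 long-day arrays lay below the lowest short-day array. The change was -0.33 ± 0.13 (SE, adjusted p = 0.78), with -0.35 in array set 1 and -0.31 in array set 2. GABRA2, the alpha-2 subunit, was at 67.0, 114 and 197 in long days (lowest, median, highest) and 45.2, 77.9 and 134 in short days. Its values are given after they were seen, since its p was second in the family. The change was 0.47 ± 0.18 (adjusted p = 0.79), and it was 0.17 in set 1 and 0.76 in set 2. A second probe set of GABRA2, above background on all 24 arrays, was at -0.04 ± 0.19. The second probe set of GABRA3 was at -0.22 ± 0.16. The other alpha subunits GABRA4 and GABRA5 were at 0.32 ± 0.20 and -0.13 ± 0.16. The gamma subunits GABRG1 and GABRG3 were at 0.27 ± 0.21 and 0.38 ± 0.23. GABRB2, a beta subunit, was at -0.13 ± 0.21, and GABRD, the delta subunit of receptors outside synapses, at 0.27 ± 0.26. GABRE, GABRQ and GABRP were at -0.28 ± 0.18, 0.00 ± 0.25 and -0.02 ± 0.29.

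GABBR2, the subunit of the GABA-B receptor that couples to G proteins, was at 177, 283 and 423 in long days and 212, 290 and 434 in short days. The ranges nearly coincided, and the change was -0.12 ± 0.14 (adjusted p = 0.99). It had opposite signs in array set 1 (-0.46) and array set 2 (0.23).

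Of the glycine receptor genes, GLRA1 was higher in long days and GLRA2, GLRA3, GLRA4 and GLRB were lower, none past the test. GLRA3, an alpha subunit, was at 91.0, 261 and 329 in long days and 157, 288 and 558 in short days. Only 1 long-day array lay below the lowest short-day array. Its change was -0.26 ± 0.20 (adjusted p = 0.98), with -0.17 in set 1 and -0.36 in set 2. GLRA2, the alpha subunit that in mammals prevails in embryonic brain, was at -0.10 ± 0.13. GLRB, the beta subunit that binds the anchoring protein gephyrin, was at -0.05 ± 0.22, and GLRA4 and GLRA1 at -0.08 ± 0.21 and 0.19 ± 0.20.

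Among the excitatory channels, GRIA2 had the smallest standard error of the 4 AMPA genes. It encodes the subunit whose presence keeps AMPA receptors nearly impermeable to calcium. GRIA2 ran from 1134 over a median of 1420 to 1665 in long days, against 1462, 1611 and 1697 in short days. In long days 8 of 12 arrays lay below the lowest short-day array. The change was -0.19 ± 0.08 (adjusted p = 0.87), or -0.31 in array set 1 and -0.06 in array set 2. Dimmer GRIA2 probe sets above background on 24 and 23 of 24 arrays were at 0.06 ± 0.22 and 0.17 ± 0.23. These standard errors are too wide to tell whether they shared the change. The mean over all tested probe sets of GRIA2 was at 0.04. GRIA1, GRIA3 and GRIA4 were at 0.20 ± 0.20, 0.10 ± 0.10 and 0.03 ± 0.15.

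The kainate receptor genes were lower in long days in 4 of 4 cases, also without centring and after quantile normalization, with a median of -0.34 and none past the test. GRIK3 had the largest change of the 4. It was at 7.92, 28.0 and 55.3 in long days (lowest, median, highest) and 27.8, 45.6 and 63.9 in short days. The groups overlapped, with 6 of 12 long-day arrays below the lowest short-day one, and 2 of the long-day arrays were under background. The change was -0.66 ± 0.29 (adjusted p = 0.87), with -0.64 in set 1 and -0.69 in set 2, and it was negative at all 6 times. A second GRIK3 probe set, above background on 18 of 24 arrays, was at -0.77 ± 0.31. Both probe sets measured the same RNA pools and are not separate samples. GRIK2, like GRIK1 and GRIK3 a subunit that can form channels alone, was at -0.35 ± 0.19, with -0.54 and -0.16 in the array sets. GRIK4, an accessory subunit, was at -0.32 ± 0.29, with 0.02 in set 1 and -0.66 in set 2. GRIK1 was at -0.04 ± 0.13, with -0.11 in set 1 and 0.02 in set 2. The direction shared by the 4 genes thus did not hold within either set. For GRIK1 a second bright probe set went the other way, at 0.45 ± 0.19.

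The NMDA receptor genes showed little difference in level. GRIN1, the subunit that every NMDA receptor contains, was at 126, 158 and 198 in long days and 95.1, 160 and 230 in short days, a change of -0.01 ± 0.14 with a 95% interval of -0.29 to 0.28. GRIN3A, which lowers calcium entry, had the smallest p of the family. It was at 191, 293 and 374 in long days and 217, 324 and 461 in short days, a change of -0.13 ± 0.16 (adjusted p = 0.99). That change was -0.36 in array set 1 and 0.11 in array set 2. GRIN2A, a glutamate-binding subunit, was at 0.06 ± 0.20. GRID1, of the delta receptors that link synapses through cerebellins, was at 88.5, 126 and 216 in long days and 64.9, 161 and 190 in short days. Its change was -0.05 ± 0.18 (adjusted p = 0.99), with -0.22 in set 1 and 0.13 in set 2.

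GRM3 had the smallest photoperiod p of all 56 genes. It encodes a metabotropic glutamate receptor coupled to inhibition of cyclic AMP formation, which in mammals is made by astrocytes as well as neurons. GRM3 ran from 762 over a median of 986 to 1094 in long days, against 1007, 1184 and 1495 in short days. The ranges overlapped in a narrow band, since 6 of 12 long-day arrays lay below the lowest short-day array and 10 of 12 short-day arrays above the highest long-day one. The change was -0.35 ± 0.09 (95% interval -0.53 to -0.17), and its adjusted p = 0.23 did not pass. It was -0.37 in array set 1 and -0.33 in array set 2, and at single times it ran from -0.61 at ZT2 to -0.13 at ZT22. A dim second probe set, above background on 6 of 24 arrays, was at -0.46 ± 0.42.

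Glial markers were set beside GRM3. The 5 measured astrocyte markers summed to 4380 to 6536 in long days and 4844 to 6298 in short days, and 0 of 5 passed the test, against 0.132% of all probe sets. SLC1A2 was at 0.59 ± 0.22 (unadjusted p = 0.0127) and higher in long days at 6 of 6 times, and AQP4 was at 0.23 ± 0.21. SLC1A3, GJA1 and GFAP were at -0.07 ± 0.07, -0.02 ± 0.09 and -0.04 ± 0.17. The 4 tanycyte markers summed to 2284 to 4207 in long days and 3228 to 5464 in short days. Of these FABP7 fell in long days (-0.95 ± 0.14, adjusted p = 9.9e-04). VIM, at -0.22 ± 0.09, NES and CRYM did not pass, and CRYM was above background on only 11 of 24 arrays. The microglia and immune cell markers were lower in long days in 5 of 5 cases, with a median of -0.23, and 0 of 5 passed. Of 2 tested oligodendrocyte markers, 1 was higher and 1 lower, and 0 passed. The part of any of these cell types in the GRM3 values was not tested. The other metabotropic receptors were at 0.24 ± 0.30 for GRM5, which acts through calcium release, and -0.09 ± 0.27, -0.27 ± 0.20 and -0.02 ± 0.17 for GRM4, GRM7 and GRM8, which sit mainly on nerve endings.

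**Figure D2:**
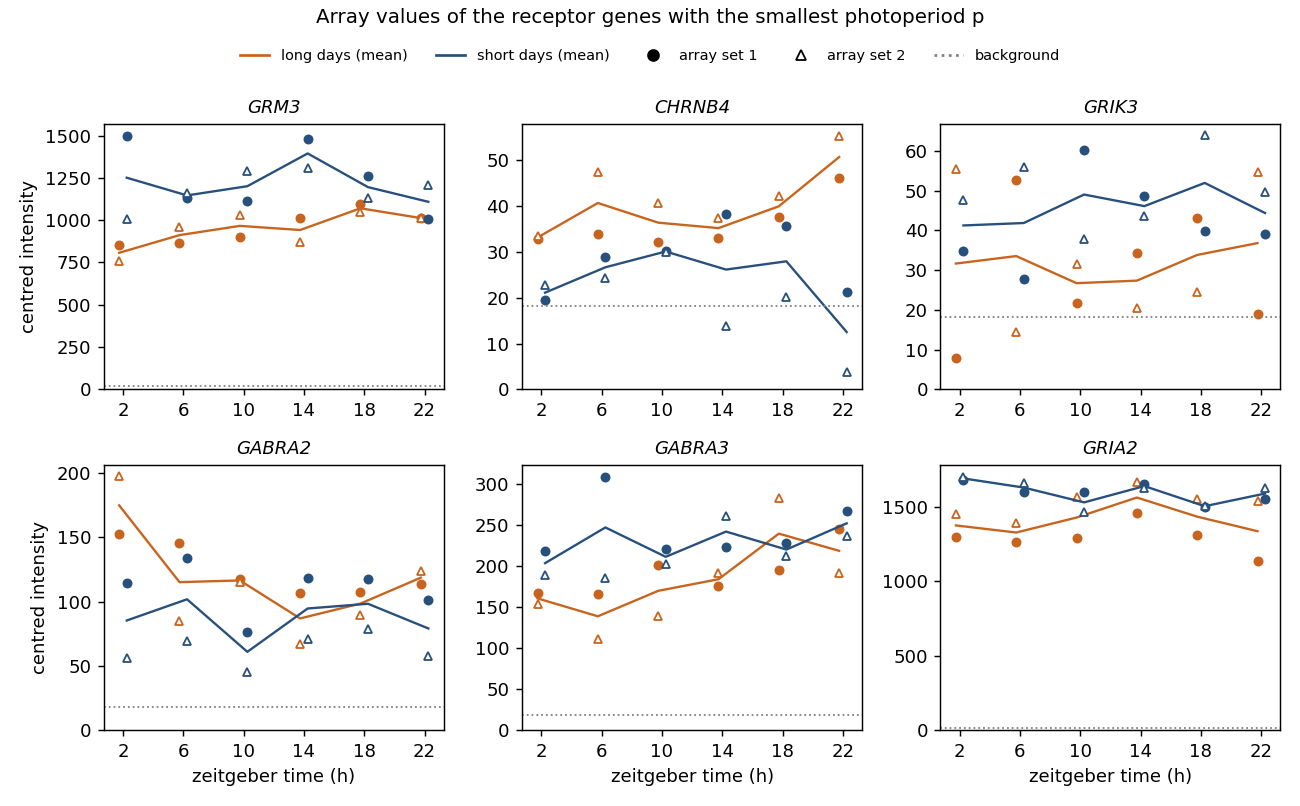
Centred intensity (vertical axes, from 0) against zeitgeber time for the 6 brighter genes with an unadjusted photoperiod p under 0.05. Points are arrays (filled circles set 1, open triangles set 2), lines are means of 2 arrays in long and short days, and the dotted line is background. GRM3, GRIK3 and GRIA2 means were lower in long days at all 6 times, and those of CHRNB4 were higher.

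Nicotinic genes went both ways, with 5 of 9 brighter ones higher in long days and none past the test. With a pseudocount of 16, 4 of the 9 were higher. CHRNB4, the beta-4 subunit, which joins alpha-3 in ganglionic receptors and in a few brain nuclei, had the largest difference of any brighter receptor gene. It was at 32.1, 37.6 and 55.3 in long days (lowest, median, highest) and 3.80, 23.5 and 38.3 in short days. All 12 long-day arrays were above background, against 10 of 12 in short days, and 10 short-day arrays lay below the lowest long-day one. The change was 0.80 ± 0.24 (adjusted p = 0.47), but 0.32 in array set 1 and 1.27 in array set 2. A second CHRNB4 probe set, above background on 16 of 24 arrays, was at 1.17 ± 0.27 (adjusted p = 0.13). The mean of both probe sets was at 0.99 (adjusted p = 0.098).

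The partners of CHRNB4 were less far apart. CHRNA3 was at 0.30 ± 0.22, with -0.11 in set 1 and 0.71 in set 2, and CHRNA5, an accessory subunit, at -0.20 ± 0.23. CHRNA4 and CHRNB2, which in mammals form the main nicotinic receptor of the brain, were at 0.13 ± 0.16 and -0.14 ± 0.18. CHRNA7 and CHRNA8, which form fast calcium-permeable receptors, CHRNA8 being known from birds and not from mammals, were at 0.21 ± 0.25 and -0.08 ± 0.21. CHRNA6 and CHRNA10 were at 0.12 ± 0.42 and -0.34 ± 0.27.

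Of the muscarinic receptors, CHRM5 was bright on every array. It ran from 67.5 over a median of 97.2 to 113 in long days, against 76.9, 122 and 167 in short days. Of the short-day arrays, 8 of 12 lay above the highest long-day array. The change was -0.32 ± 0.17 (adjusted p = 0.93). It rested on array set 1 (-0.60) more than on set 2 (-0.04). CHRM4, which lowers cyclic AMP, was at -0.26 ± 0.30. CHRM2 was dim, above background in 6 of 12 cases in long days and 1 of 12 in short days, and its change was 0.84 ± 0.39 (adjusted p = 0.91), with 0.04 in set 1 and 1.63 in set 2.

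**Figure D3:**
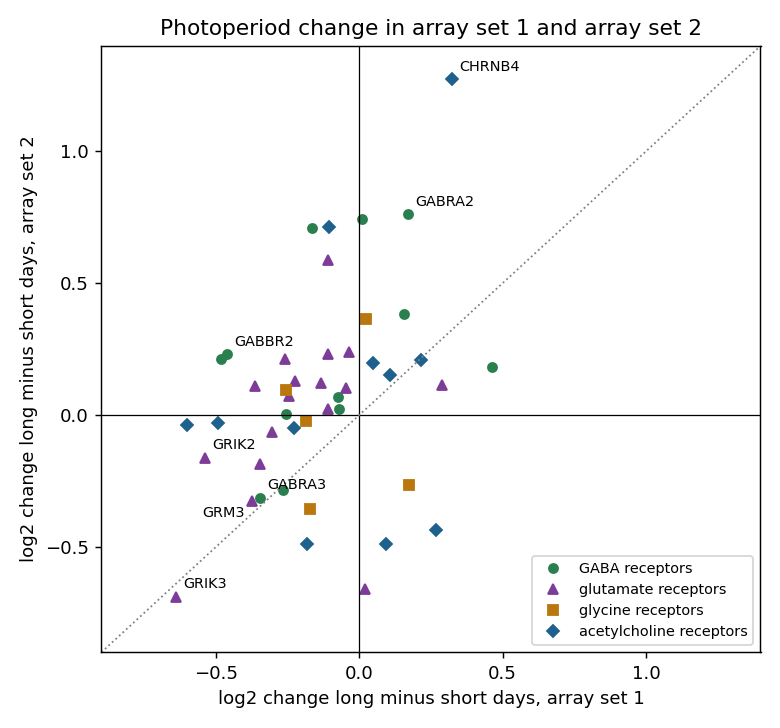
Log2 photoperiod change, long days minus short days, within array set 1 (horizontal) and array set 2 (vertical) for the 45 brighter genes, with symbols for the transmitter and a dotted line of equal change. GRM3, GABRA3 and GRIK3 lie near that line, whereas CHRNB4 and GABRA2 lie well above it.

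How far the array sets shared a direction was counted. The sign was the same in both for 30 of 56 genes, or 53.6%, against 51.1% of all probe sets. Of the 45 brighter ones, 10 were higher in both sets and 13 lower. Second probe sets gave no closer match, as 28 further probe sets above background on at least 12 arrays, from 21 genes, had the sign of the main one in 13 cases and the opposite in 15.

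Each time of day was then compared on its own, with 2 arrays against 2. Counted from lights on, ZT10, ZT14 and ZT18 fell in the light of long days and the dark of short days. At those times, day length and the light at sampling cannot be told apart, and the change over all 6 times includes them. ZT6 was the time of lights off in short days, and the labels do not say on which side of it sampling fell. None of the 56 genes passed at any time, where few probe sets of the whole array did. Their shares were 0.00694% (ZT2), 0.0139% (both ZT6 and ZT10), 0.0277% (ZT14), 0.0173% (ZT18) and 0.0104% (ZT22). At an unadjusted p under 0.05 the counts were 5, 4, 3, 1, 4 and 1 of 56 from ZT2 to ZT22, against 4.08%, 4.16%, 4.43%, 5.41%, 4.12% and 4.41% of all probe sets. The median standard error at a single time was 0.49, against 0.20 over all times, and changes of the 45 brighter genes ran from -1.58 (CHRM4 at ZT6) to 2.24 (CHRNB4 at ZT22).

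For each time the receptor gene with the smallest p is given. At ZT2 it was GRM3, with 853 and 762 in long days and 1495 and 1007 in short days (-0.61 ± 0.22, adjusted p = 0.999). The short-day pair was far apart. At ZT6 it was GABRA3, with 166 and 111 in long days and 308 and 185 in short days (-0.81 ± 0.32, adjusted p = 1). At ZT10 GABRG1 was at 107 and 140 in long days and 81.0 and 34.8 in short days (1.18 ± 0.52, adjusted p = 1). In these 3 cases, as in those of the later times, the arrays of a time did not overlap between photoperiods. The genes were picked by their smallest p, so this lack of overlap is no separate evidence. No share over all probe sets is given for it. GRM3 came first again at ZT14, with 1013 and 871 in long days and 1480 and 1309 in short days (-0.57 ± 0.22, adjusted p = 0.89). At ZT18 GLRA1 was at 67.3 and 37.6 in long days and 26.4 and 11.7 in short days (1.43 ± 0.50, adjusted p = 1).

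At ZT22 CHRNB4 was at 46.0 and 55.3 in long days and 21.2 and 3.80 in short days (2.24 ± 0.59, adjusted p = 0.93). The lower short-day array, of set 2, was under background. Without it the change was 1.19. Without the set 1 array the adjusted p was 0.048, the one call of a receptor gene among the alternatives run. That fit set both long-day arrays against the 1 array under background, so the size of the change is not measured there. In both fits the single short-day array was assumed to vary like the other groups. At the other times CHRNB4 was higher by 0.25 to 0.62.

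The daily course was tested within each photoperiod. Between the 6 times none of the 56 genes passed in long days, where 0% of all probe sets did, or in short days (0.0208%). A 24 h cosine was not called for any receptor gene in long days (0%) or short days (0.0208%), and the interaction of photoperiod and time (0.00694%) and the difference in cosine (0.00694%) called none. Unadjusted p values under 0.05 were found for 2 of 56 by time of day in long days and 2 in short days (3.42% and 3.7% of all probe sets), and for 2 by the interaction (3.31%). The cosine gave 2 in long days and 4 in short days (4.03% and 4.62%), and the difference in cosine 2 (4.18%). The cosine amplitudes of the 45 brighter genes, in log2 units, had a median of 0.18 in long days and 0.18 in short days with a median standard error of 0.20. Over all probe sets that bright the medians were 0.22 and 0.24. A fitted amplitude cannot fall under 0, so noise alone also gives amplitudes above 0. The standard error beside an amplitude is that of its fitted cosine term.

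GLRA1, an alpha subunit that in mammals serves adult spinal and brainstem inhibition, had the smallest p of the short-day tests. In short days it was at 67.7 and 94.5 at ZT2, 99.3 and 61.7 at ZT6, 52.9 and 35.9 at ZT10, 93.3 and 50.2 at ZT14, 26.4 and 11.7 at ZT18, and 56.1 and 27.3 at ZT22. The ZT18 pair was the lowest, with 1 of its arrays under background. In long days its 12 arrays ran from 32.0 to 79.5 with a median of 58.1. Its cosine amplitude, 0.09 ± 0.23 in long days, reached 0.75 ± 0.23 in short days, with a short-day peak at 5.90 h, and the adjusted p of the cosine difference was 0.999. Those of the time of day in short days and of the short-day cosine were 1 as well.

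Other genes with small p values were also given their courses. GLRB was lowest at ZT18 of short days too, at 54.0 and 48.5, against 178 and 144 at ZT10, with an adjusted p of 1 for time of day. In long days the GLRB arrays of ZT10 were at 195 and 49.8, so that 1 pair spanned the whole long-day range. GLRA4 was at 279 and 193 at ZT22 of long days and 94.1 and 41.7 at ZT2 (adjusted p = 1). GRIK1 had a cosine amplitude of 0.05 ± 0.13 in long days and 0.34 ± 0.13 in short days, with a peak at 9.70 h (adjusted p of the short-day cosine 1). By its means GRIA3 was highest in long days at ZT18, at 1071 and 1132, and lowest at ZT6, at 797 and 746. Its amplitude was 0.23 ± 0.09 in long days, with a peak at 18.97 h, and 0.05 ± 0.09 in short days (adjusted p of the long-day cosine 1). GABRA3 had amplitudes of 0.36 ± 0.12 in long days, with a peak at 18.6 h, and 0.04 ± 0.12 in short days (adjusted p of the long-day cosine 1).

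**Figure D4:**
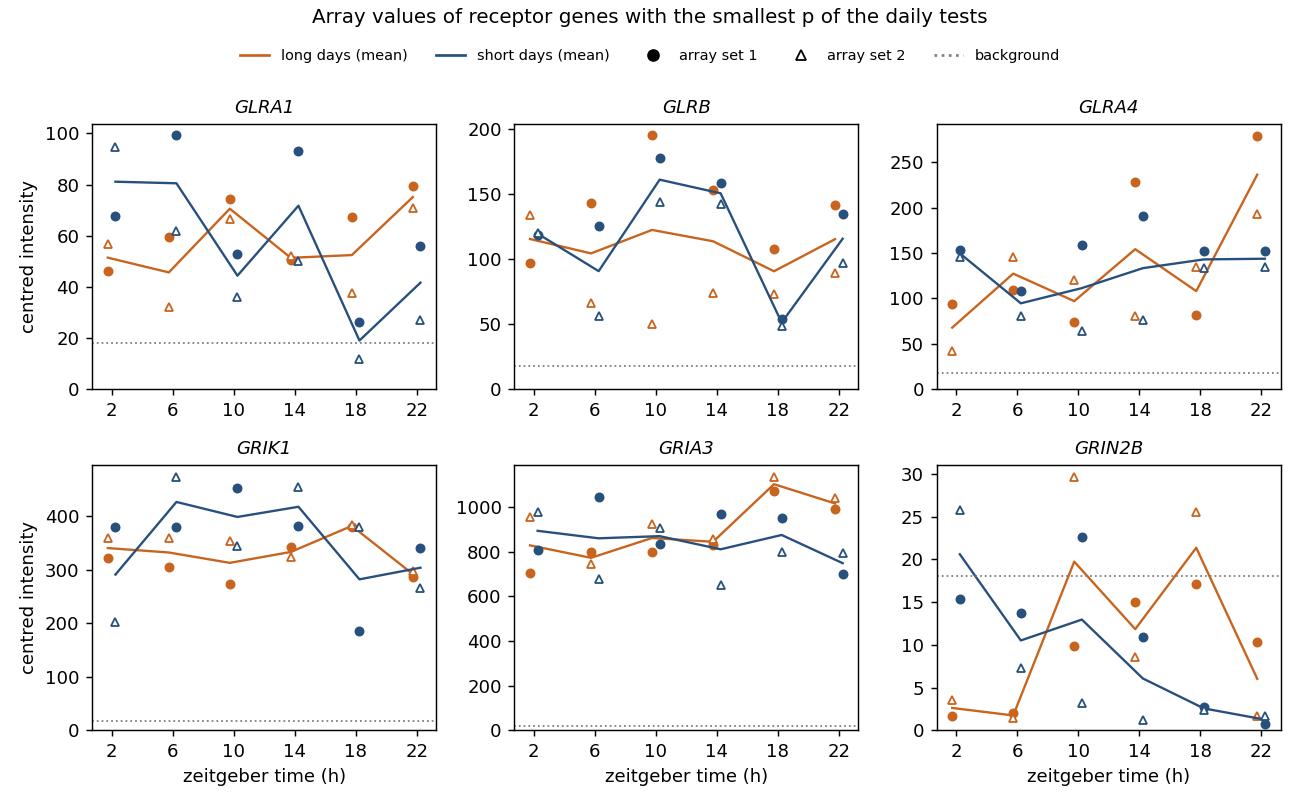
Centred intensity (vertical axes, from 0) against zeitgeber time for 6 genes, each among the 3 smallest p of a daily test. GABRA3 and the dim CHRNA2, GABRR3 and GRM2, which also were, are not drawn. Points are arrays (filled circles set 1, open triangles set 2), lines are means of 2 arrays in long and short days, and the dotted line is background. GLRA1 and GLRB were lowest at ZT18 in short days, and GRIN2B lay mostly under background.

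GRIN2B, an NMDA subunit of young synapses, had the smallest p of the long-day tests and of the tests between daily courses, but was above background on only 2 of 12 arrays in each photoperiod. In long days it was at 1.67 and 3.55 at ZT2 and 17.2 and 25.6 at ZT18. In short days it was at 15.4 and 25.8 at ZT2 and 2.78 and 2.34 at ZT18. The amplitudes were 1.35 ± 0.40 in long days and 1.15 ± 0.40 in short days, with peaks at 14.99 h and 6.09 h, and the cosine difference had an adjusted p of 0.999. Values under background have no sure order. The same holds for CHRNA2 (adjusted p = 0.999 for the cosine difference, above background on 5 of 24 arrays), GABRR3 (on 6) and GRM2 (on 3), the other dim genes among the 3 smallest p of a test.

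Genes that make, move or anchor at these receptors and their transmitters were listed, with earlier results known. Of 78 listed, 57 were measured, 56 tested and 47 above background on at least 12 arrays. In the photoperiod test 0 of 56 rose and 1 fell, against 0.132% of all probe sets. The daily tests called 0 of 56, where they called 0% to 0.0208% of all probe sets, so that count says nothing particular of these genes. The gene that fell was COLQ, the collagen tail that anchors acetylcholinesterase. COLQ ran from 182 over a median of 238 to 370 in long days, against 324, 485 and 773 in short days. In long days 11 of 12 arrays lay below the lowest short-day array. The change was -0.97 ± 0.14 (adjusted p = 6.0e-04), with -1.17 in set 1 and -0.76 in set 2. The enzyme itself, ACHE, was at -0.10 ± 0.39.

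The rest of the list did not pass. GAD1 and GAD2, which make GABA, were at 0.49 ± 0.25 and 0.08 ± 0.13, and SLC32A1, which loads GABA and glycine into vesicles, at -0.31 ± 0.18. SLC17A6, a vesicular glutamate transporter, was at 0.31 ± 0.18, and SLC1A2, which clears glutamate into astrocytes, at 0.59 ± 0.22 (adjusted p = 0.71). SLC18A3, the vesicular acetylcholine transporter, was at 0.42 ± 0.29, and CHAT was above background on 0 of 24 arrays and not tested. Among anchoring proteins GPHN, gephyrin of the glycine and GABA-A receptors, was at -0.02 ± 0.10. HOMER1, a scaffold of GRM5, was at 0.29 ± 0.13 and CBLN1, a ligand of delta receptors, at 0.25 ± 0.08 (adjusted p = 0.61). The auxiliary AMPA subunits CACNG2 and CACNG4 were at 0.17 ± 0.15 and -0.28 ± 0.15.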

How the data were processed

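RNA of 24 pools was measured on Affymetrix chicken arrays. The deposited intensity values are per probe set on a linear scale, and the submitters' processing notes name GCOS 1.2. Scaling is not given in the sources used here. Of 38535 probe sets, 96 controls were left out. Values were taken as log2(intensity + 1.497), a pseudocount of 10% of the overall median of 14.97, and each array was centred on its median. The pseudocount shrinks changes of dim genes, but it is small beside the background of 15.4 to 21.3. Values under background can therefore still give large log2 changes. Intensities in the text are these values turned back to the linear scale. The lowest 25% by mean log2 value were left out and 28829 tested. No detection calls were used.

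Tests used limma 3.58.1 in R 4.3.3 (lmFit, eBayes with a mean-variance trend) with a mean for each of 12 groups, and a second model with a cosine of 24 h period, fitted to each photoperiod. The Benjamini-Hochberg adjustment took in all 28829 tested probe sets. Standard errors and 95% intervals are moderated and not adjusted for the number of genes. P-values measure the spread between the arrays of a group, which are pools that the labels call biological replicates. The arrays of a group come from different array sets, so this spread also takes in the difference between the sets. The main model has no term for that difference, and results with a replicate block are given below. Changes within an array set come from photoperiod plus time as additive terms. The code was tested on simulated data.

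Members, families and lists were chosen with earlier results of these data known. Per family the brighter gene with the smallest photoperiod p was given in full, with the 3 smallest p of each daily test and the smallest at each time. The other brighter genes were given by their change. Gene names come from the platform's annotation, and 53 of the 60 symbols occur in the gene table of Coturnix japonica 2.1. Probe sets named _s_at, among them those used for GRIA2 and GRIK3, can match several related transcripts. The probes are of chicken, so no quail coordinates are given. Figures were drawn with matplotlib 3.10.9.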

Additional observations from a re-analysis of the deposited data

How the results depend on the processing

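The count of receptor genes past a test was 0 under the alternatives run (pseudocounts of 1 and 16, quantile normalization, no centring, no filter, the lowest 50% left out, no variance trend, weights per array, a replicate block, the mean over a gene's probe sets, each array set alone for the photoperiod test and leaving out each array) in 443 of 444 cases. Leaving out single arrays gave a range of 0 to 1 at ZT22, the 1 being CHRNB4 against a single short-day array under background, and 0 in the other tests. With the replicate block GRM3 reached an adjusted p of 0.076 and CHRNB4 0.29. Over 66 pairs of groups the differences between array 1 and array 2 correlated at 0.01 to 0.10, all positive and 3 over 0.1. Over all tested probe sets this is a weak shared effect of the array number. It is short of the level of 0.1 in every pair that was asked for to treat the numbers as pairs. Single genes could show a larger one. Arrays 1 and 2 of GRM7 were at 826 and 283 at ZT2 of long days and 1068 and 514 at ZT6 of short days. The effect of the array number was not tested gene by gene. Over its 36 alternatives the adjusted p of GRM3 ran from 0.076 to 1 and its change from -0.40 to -0.29. The median change of the 45 brighter genes ran from -0.13 to 0.034. The change of CHRNB4 ran from 0.32 to 1.27, and with a pseudocount of 16 it was 0.48.

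Directions turned for 4 of the genes followed: GRIA2 with the mean over probe sets (0.036), GRID1 with it (0.015), in array set 2 (0.13) and without single arrays (-0.16 to 0.064), and GABBR2 (0.23) and GRIN3A (0.11) in array set 2. Over all probe sets the photoperiod count was 38, and 74 after quantile normalization, 12 uncentred, 76 with the replicate block and 16 in array set 2 alone. Without single arrays the counts at single times ran up to 345, at ZT14, and time of day in long days from 0 to 93. The median of all changes moved by less than 0.1 under each. Precision is limited by 2 arrays a group and, for the 11 dim genes, by signal near background.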

Other observations

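In the gene table of Coturnix japonica 2.1, some members are neighbours among coding genes, and their photoperiod changes can be set side by side without a test. CHRNB4, CHRNA3 and CHRNA5 follow each other with 0 coding genes between them, and were at 0.80, 0.30 and -0.20. GABRA2 and GABRG1 are adjacent, with GABRA4 beyond GABRB1 on the other side, and were at 0.47, 0.27 and 0.32, none past the test. That direction depends on the probe set, since the second probe sets of GABRA2 and GABRA4, above background on 24 and 14 of 24 arrays, were at -0.04 and -0.04. GABRG3 and GABRA5 are adjacent too, at 0.38 and -0.13, as are GLRB and GRIA2, at -0.05 and -0.19.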
